A study of Mus musculus with 5 samples.

Results

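The cells described here were 159 of 692 cells sorted from the brain as CD3+. In each of the 159, the mean score of Cd8a and Cd8b1 (CD8 coreceptor chain genes) was above 0 and Cd4 at or below 0. They were divided by the mean score of Ccl5, a chemokine that draws T cells and monocytes, and Nkg7, a membrane protein of cytotoxic granules. In 110 cells that mean was above 0 (the Ccl5/Nkg7-high class) and in 49 it was at or below 0 (the Ccl5/Nkg7-low class). The cells were thus chosen by the scores of these 5 genes, so their values are a description and they were left out of every test.

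The study used wildtype C57BL/6 mice in which a stroke had been induced by photothrombosis. Trained mice had running wheels from day 2, untrained mice did not, and CD3+ cells were sorted from the stroke-side hemisphere at day 14 into 384-well plates for single-cell RNA sequencing (SORT-seq). There were 2 untrained and 3 trained samples, all from animals with a stroke, so no sample without a stroke enters here. Whether the samples came from separate animals or from pools is not in the labels. The p-values therefore speak for the variation among these 5 samples, which may be technical.

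CD8 T cells recognise peptides on class I molecules and kill target cells with granule proteins or with Fas ligand. After activation they gain chemokines such as Ccl5 and Xcl1, receptors such as Cxcr6 and granule genes, while naive and recirculating cells carry Tcf7, Lef1, S1pr1 and Klf2. Ccl5 and Nkg7 are among the genes that separate effector and memory CD8 T cells from naive ones.

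Every value is a score in the deposited table, not a count. Scores ran from -2.12 to 3.74, 72.7% of them were below 0, and the depth of each cell is unknown. A difference below is a difference of mean scores (high minus low), not a fold change in expression. A score above 0 is not the detection of a transcript.

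The high class held 21 of 36 CD8-gated cells in untrained sample 1, 21 of 32 in untrained sample 2, 12 of 17 in trained sample 1, 28 of 34 in trained sample 2 and 28 of 40 in trained sample 3. The low class was therefore small, with 15, 11, 5, 6 and 12 cells in the same order. Near the division, 10 cells had a Ccl5/Nkg7 mean above 0 and at most 0.25, and 14 had one at or below 0 and above -0.25. The lowest value in the high class was 0.0198 and the highest in the low class was -0.00701. Classes cut from a score are ranges, and these cells lie next to each other on it.

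The mean Ccl5 score of the high class was 0.737 and 1.80 in untrained samples 1 and 2, and 1.05, 1.08 and 0.985 in trained samples 1 to 3. In the low class it was -0.354, -0.570, -0.628, -0.396 and -0.285. Among high cells of untrained sample 2 the median Ccl5 score, 2.52, was also the highest, so scores there reached a ceiling. Levels of that sample may therefore not compare with those of the others. Nkg7 ran from 0.666 to 1.24 over samples in the high class and from -0.598 to -0.280 in the low class. Over the CD8-gated cells of 1 sample, the Pearson correlation of Ccl5 with Nkg7 was between 0.321 (17 cells) and 0.711 (32 cells), a description over cells that share a sample.

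The regulatory sequence of Nkg7 is shown because it was the only member of the dividing pair in the RefSeq promoter table used here, together with that of Xcl1, a chemokine gene that was higher in the high class and whose window held both motifs below. Each run is the 250 bases before the gene's start, with capitals marking the letters TCACACC or their complement GGTGTGA (the core bound by T-box factors such as Tbx21 and Eomes) and TGTGGTT or AACCACA (the core bound by Runx factors). Both strands were searched and no 2 marked runs overlapped. Nkg7 (GRCm38.p6, chr7:43436888-43437137, + strand) held 1 T-box run, and Xcl1 (chr1:164935523-164935772, - strand) held 1 of each. Of the other genes searched, Cxcr6 and Cst7 held neither, and Ly6c2 and 1 of 2 Srgn windows held the Runx letters alone; these are not printed.
Nkg7: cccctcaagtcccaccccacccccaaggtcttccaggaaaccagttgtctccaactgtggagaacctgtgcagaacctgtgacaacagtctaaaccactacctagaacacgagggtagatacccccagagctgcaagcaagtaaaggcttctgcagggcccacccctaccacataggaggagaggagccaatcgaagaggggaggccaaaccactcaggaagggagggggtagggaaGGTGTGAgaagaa
Xcl1: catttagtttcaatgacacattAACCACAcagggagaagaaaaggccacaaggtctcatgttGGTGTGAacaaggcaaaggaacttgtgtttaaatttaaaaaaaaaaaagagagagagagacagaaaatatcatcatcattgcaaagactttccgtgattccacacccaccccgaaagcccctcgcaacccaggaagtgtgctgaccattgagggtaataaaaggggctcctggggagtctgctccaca

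The T-box letters were in 3.84% of the 27025 genes of that table, in 4.05% of the 1160 matched genes that were higher in the high class and in 3.16% of the 95 matched genes that were lower. The Runx letters were in 5.08%, 5.26% and 4.21% of the same sets. Genes on either side of the division thus held these letters about as often as genes at large. Of 9 matched cytotoxic granule and effector genes, 3 (33.3%) held the T-box letters and 3 (33.3%) the Runx letters. That set is small and was not tested, and the runs above are a description of these windows alone.

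The label was first checked against T cell markers. The mean score of 7 measured markers (Cd3e, Cd3d, Cd3g, Cd2, Cd247, Lck and Thy1) was above 0 in 99 of 110 high cells (90.0%) but in 9 of 49 low cells (18.4%). Among the 330 cells below both coreceptor gates it was above 0 in 28.2%. By sample, the level of this list ran from 0.295 to 0.521 in the high class and from -0.293 to -0.175 in the low class. The high class carried T cell markers. The low class scored low on them, but not on them alone: 16.9% of all tested genes were above 0 there, against 38.3% in the high class. Its mean level over samples was also below 0 for class I presentation genes (-0.230) and microglia and macrophage markers (-0.295). Its T cell label was therefore not established. The low class is called by its rule and not named as naive or resting CD8 T cells.

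Cd8a and Cd8b1 themselves, which the gate used, were also nearer to the cut in the low class. Their mean over cells was 0.850 in the high class and 0.332 in the low class. Cd8b1 was above 0 in 80.0% of high cells and 46.9% of low cells.

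Few markers of other cells could be read. None of the listed markers of B cells, neutrophils, dendritic cells, gamma delta T cells, astrocytes, endothelium and neurons was among the measured genes. The presence of those cells could therefore not be read. The 6 measured microglia and macrophage markers had a list level between -0.427 and -0.150 over samples in the low class and between -0.534 and -0.0542 in the high class. Of these 6, 1 was higher in the high class (Fcer1g, an Fc receptor chain) and 0 were lower. Cst3, a protease inhibitor abundant in microglia, differed by 0.04 (limma adjusted p = 0.693), and Tyrobp, a myeloid and NK cell adaptor, by 0.02 (limma adjusted p = 0.796). Subtracting the mean score of each cell moved the median difference over all tested genes from 0.20 to 0.0004. After it, 8.28% of tested genes passed as lower in the high class. Of the 6 markers, 5 then had negative differences, among them Cst3 (-0.16), Tyrobp (-0.17) and C1qb, a complement chain (-0.12). Apoe, a lipid carrier of microglia and astrocytes, then passed as lower in the high class (-0.26, limma), and was named here after its value was seen. The 4 measured NK cell markers were at -0.0344 to 0.145 in the high class and -0.358 to -0.114 in the low class. Mbp, a myelin protein and the only oligodendrocyte marker measured, was between -0.383 and 0.192 in the low class, above 0 in trained sample 1 alone, and between 0.110 and 0.438 in the high class. The part of other cells in the differences below was not tested.

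The mean score over all genes was higher in the high class in each sample. The mean score over the 2921 tested genes was 0.0720 in high and -0.106 in low cells of untrained sample 1, and 0.0780 and -0.188 in untrained sample 2. It was 0.0785 and -0.0520 in trained sample 1, 0.0977 and -0.143 in trained sample 2, and 0.0707 and -0.106 in trained sample 3. The classes did not overlap over samples. Over cells, 38.3% of tested genes had a score above 0 in the high class and 16.9% in the low class. By sample, that share in the high class was 20.7% in untrained sample 2 and 35.7% to 47.6% in the others.

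Within a sample the Ccl5/Nkg7 mean correlated with the mean score of all tested genes at Pearson r between 0.539 and 0.743, over 17 to 40 cells of 1 sample. The 41 spike-in RNAs, which are added to each well and are not made by cells, moved the other way. Their mean score was 0.00848 in the high and 0.0754 in the low class, and was higher in the low class in 4 of 5 samples, trained sample 1 being the exception (0.0140 high, -0.190 low). The part of depth or RNA quality in the differences below was not tested, because the table gives no counts.

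**Figure D1:**
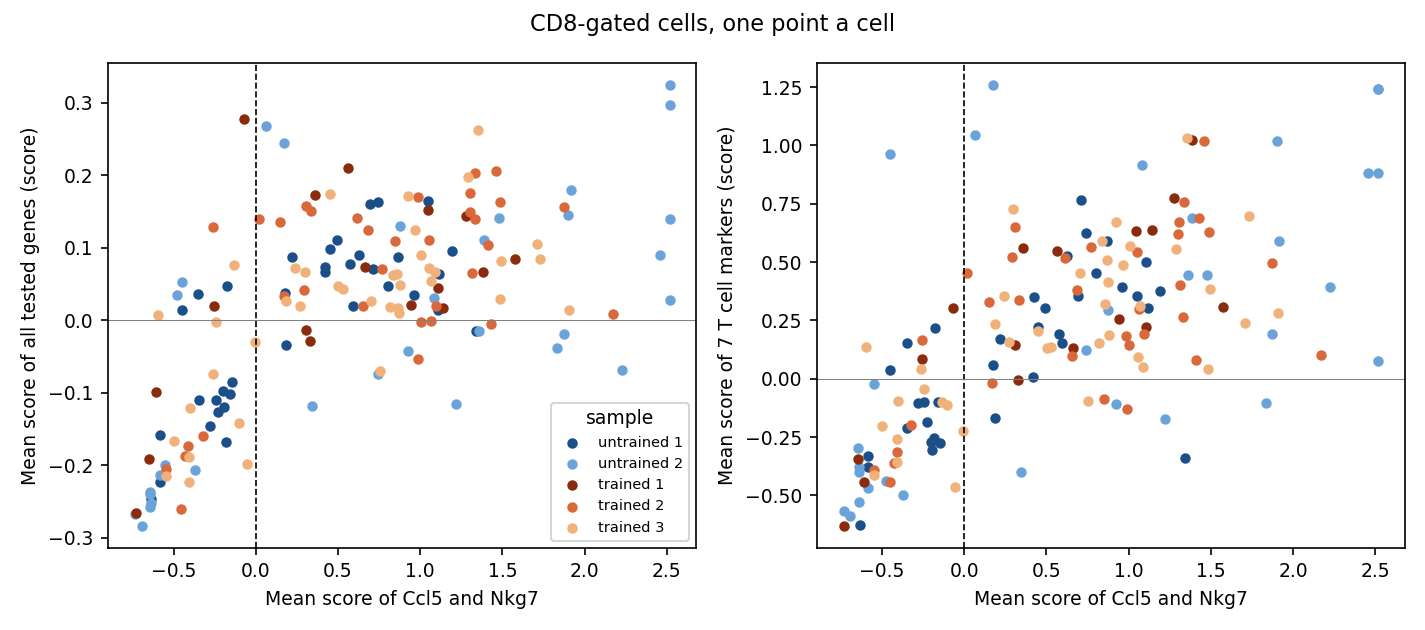
Each point is 1 of the 159 CD8-gated cells, coloured by sample, with the mean score of Ccl5 and Nkg7 on the x axis (dashed line at the division, 0). The y axis shows the mean score of all 2921 tested genes (left) and of 7 T cell markers (right); most cells left of the line lie below 0 on both.

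With sample as a block, 1507 genes (51.6% of 2921) were higher in the high class and 130 (4.45%) were lower, by limma with Benjamini-Hochberg adjustment at 0.05. The median difference over all tested genes was 0.20, and 991 genes (33.9%) did not overlap between the classes over samples. When the mean score of each cell was subtracted from its genes, 281 genes (9.62%) were higher and 242 (8.28%) lower, and all 281 were among the 1507. When each gene was regressed on the mean score of the cell, an alternative chosen after the data were seen, only Rpl12 (0.0342% of genes) passed (difference 0.42, limma adjusted p = 0.039). A count of members in a list is therefore given below with its count after subtraction, except for the Gimap family. The first count is to be read against the 51.6% of all genes that were higher and the 4.45% that were lower. The count after subtraction is to be read against 9.62% and 8.28%.

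Among genes that were higher in the high class, those of protein synthesis had the largest differences. Rplp1, a stalk protein of the ribosome, was at 0.708, 1.27, 0.932, 0.725 and 0.892 in the high class of untrained samples 1 and 2 and trained samples 1 to 3, and at -0.186, -0.659, -0.185, -0.580 and -0.242 in the low class. The classes did not overlap, and the difference was 1.28 ± 0.118 (SE, limma adjusted p = 1.3e-05). Of 68 cytosolic ribosomal proteins 68 were higher with a median difference of 0.88, and 65 were higher after subtraction. Tpt1, a growth-related translationally controlled protein, was higher by 1.26.

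T cell receptor genes rose as well. Cd3e, a signalling chain of the receptor complex, was at 0.454, 0.656, 0.442, 0.485 and 0.439 in the high class and at -0.0999, -0.265, -0.222, -0.145 and -0.00391 in the low class. Each sample was higher in the high class, with a difference of 0.64 ± 0.0793 (SE, limma adjusted p = 6.95e-05). Cd3d was higher by 0.93, Thy1, a surface protein of mouse T cells, by 0.86, and the receptor kinase Lck by 0.71. All 7 T cell markers were higher (5 after subtraction), as were 19 of 24 measured genes of receptor signalling (8 after subtraction).

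The 11 measured cytotoxic granule and effector genes were Ctsw, Srgn, Fasl, Lamp1, Cst7, Ctsc, Ctsd, Rab27a, Unc13d, Efhd2 and Plac8. No granzyme or perforin gene was among them. Of these 11, 7 were higher and 0 lower, with a median difference of 0.28 beside 0.20 for all genes. After subtraction 3 were higher: Srgn, the proteoglycan that packs granule proteins (0.66 before subtraction), Ctsw, a protease of cytotoxic lymphocytes (0.65), and Cst7, a granule protease inhibitor (0.54). Ctsw was at 0.385, 0.756, 0.273, 0.564 and 0.521 in the high class and at -0.0999, -0.238, -0.0557, -0.289 and -0.0707 in the low class. The samples did not overlap, with a standard error of 0.0946 and limma adjusted p = 0.000206. Ctsw had a score above 0 in 70.0% of high and 30.6% of low cells.

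Among receptors and ligands, Klrd1, the CD94 chain shared by NK cells and effector CD8 T cells, was higher by 0.58 ± 0.0807 (SE, limma adjusted p = 0.000152). Klrk1, the activating receptor NKG2D, was higher by 0.27 (limma adjusted p = 0.0408) and had lost that call after subtraction (0.08, limma adjusted p = 0.668). Xcl1, a chemokine that attracts cross-presenting dendritic cells, was at 0.111, 0.292, 0.583, 0.231 and 0.275 in the high class and at -0.316, -0.398, -0.0239, -0.132 and -0.310 in the low class. Its difference was 0.53 ± 0.0739 (SE, limma adjusted p = 0.000146), and trained sample 1 was the highest in both classes.

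Chemokine receptors and adhesion genes counted 12 higher and 1 lower of 15 measured (4 and 1 after subtraction). Cxcr6, a receptor of tissue-resident and effector T cells, was at 0.285, 0.518, 0.141, 0.535 and 0.360 in the high class and at -0.206, -0.347, -0.245, 0.262 and -0.0180 in the low class. The low class of trained sample 2 lay above the high class of trained sample 1, so the classes overlapped over samples, although Cxcr6 was higher in the high class within each sample (0.48 ± 0.0874 SE, limma adjusted p = 0.00103). Cxcr3, a receptor for interferon-induced chemokines, was higher by 0.50, and Itgb7, an integrin chain, by 0.61.

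Ly6c2, a surface antigen of effector and memory CD8 T cells, was at 0.292, 0.567, 0.277, 0.471 and 0.444 in the high class and at -0.208, -0.367, -0.157, -0.0961 and -0.293 in the low class. The classes did not overlap, with a difference of 0.63 ± 0.0829 (SE, limma adjusted p = 9.93e-05). Ly6c2 had a score above 0 in 57.3% of high and 6.12% of low cells.

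Of 11 measured effector transcription factors 9 were higher (2 after subtraction), with a median of 0.35. Hopx, a homeodomain protein of effector and memory cells, was higher by 0.67 and Id2, an inhibitor of E proteins that favours effector fate, by 0.64. Tbx21 (T-bet) was higher by 0.22 (limma adjusted p = 0.0311). Eomes, its relative, was at 0.136, 0.429, 0.385, 0.0782 and 0.143 in the high class and at 0.192, -0.210, 0.112, 0.177 and -0.143 in the low class, and did not pass (0.21, limma adjusted p = 0.088). In untrained sample 1 and trained sample 2, Eomes was higher in the low class.

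Naive and recirculation genes were not higher in the low class. Of 10 measured, 8 were higher in the high class and 0 lower, with a median of 0.29 (1 higher after subtraction). Tcf7, which maintains naive and memory-like T cells, was at 0.284, 0.231, 0.141, 0.459 and 0.274 in the high class and at -0.0410, -0.138, 0.364, -0.358 and -0.203 in the low class. Tcf7 was higher in the high class in all samples except trained sample 1, with a difference of 0.35 ± 0.115 (SE, limma adjusted p = 0.0216). Lef1, a transcription factor of the same family, differed by 0.12 (limma adjusted p = 0.266).

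Interferon-stimulated genes counted 34 higher and 1 lower of 57 measured (6 and 3 after subtraction), and class I presentation 15 higher and 0 lower of 17 (7 and 1). B2m, the light chain of class I, was higher by 0.92, and Psmb8, an immunoproteasome subunit, by 0.76. Actin cytoskeleton genes counted 27 higher of 29 (18), with Tmsb10, which binds actin monomers, at 1.01. The effector memory list counted 12 higher of 15 (10), with Crip1 at 0.58 and Lgals1, a galectin, at 0.53.

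Respiratory genes rose in both genomes: 10 of 12 mitochondrially encoded genes (6 after subtraction) and 54 of 69 nuclear ones (15) were higher. mtCo1, a core subunit of cytochrome oxidase, was higher by 0.95. The Gimap GTPases of lymphocytes counted 6 higher and 1 lower of 8: Gimap4 was higher by 0.81, while Gimap1 was lower (difference -0.55, limma adjusted p = 0.000242).

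The genes that were lower in the high class were led by noncoding and rarely studied transcripts. This holds for the leading genes, not for such transcripts as a set. A list of 5 (Kcnq1ot1, A630089N07Rik, Malat1, Neat1 and Lars2) ran from -0.140 to 0.144 over samples in the high class. In the low class it ran from 0.0959 to 0.574, so the classes overlapped. Kcnq1ot1, a long noncoding RNA of an imprinted cluster, was at -0.337, -0.555, -0.145, -0.492 and -0.525 in the high class and at 0.599, 1.34, 0.878, 1.56 and 0.795 in the low class. The classes were far apart in every sample, with a difference of -1.45 ± 0.144 (SE, limma adjusted p = 1.69e-05). Kcnq1ot1 had a score above 0 in 69.4% of low and 11.8% of high cells. Many low cells of untrained sample 2 shared the same Kcnq1ot1 score, 2.52, the ceiling given above for Ccl5. A630089N07Rik (-1.49), Gm10785 (-1.45) and Gm17821 (-1.42) had differences of the same size. Slfn9, a Schlafen family gene, was lower at -1.13, and Tyms, an enzyme of thymidylate synthesis, at -0.57.

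**Figure D2:**
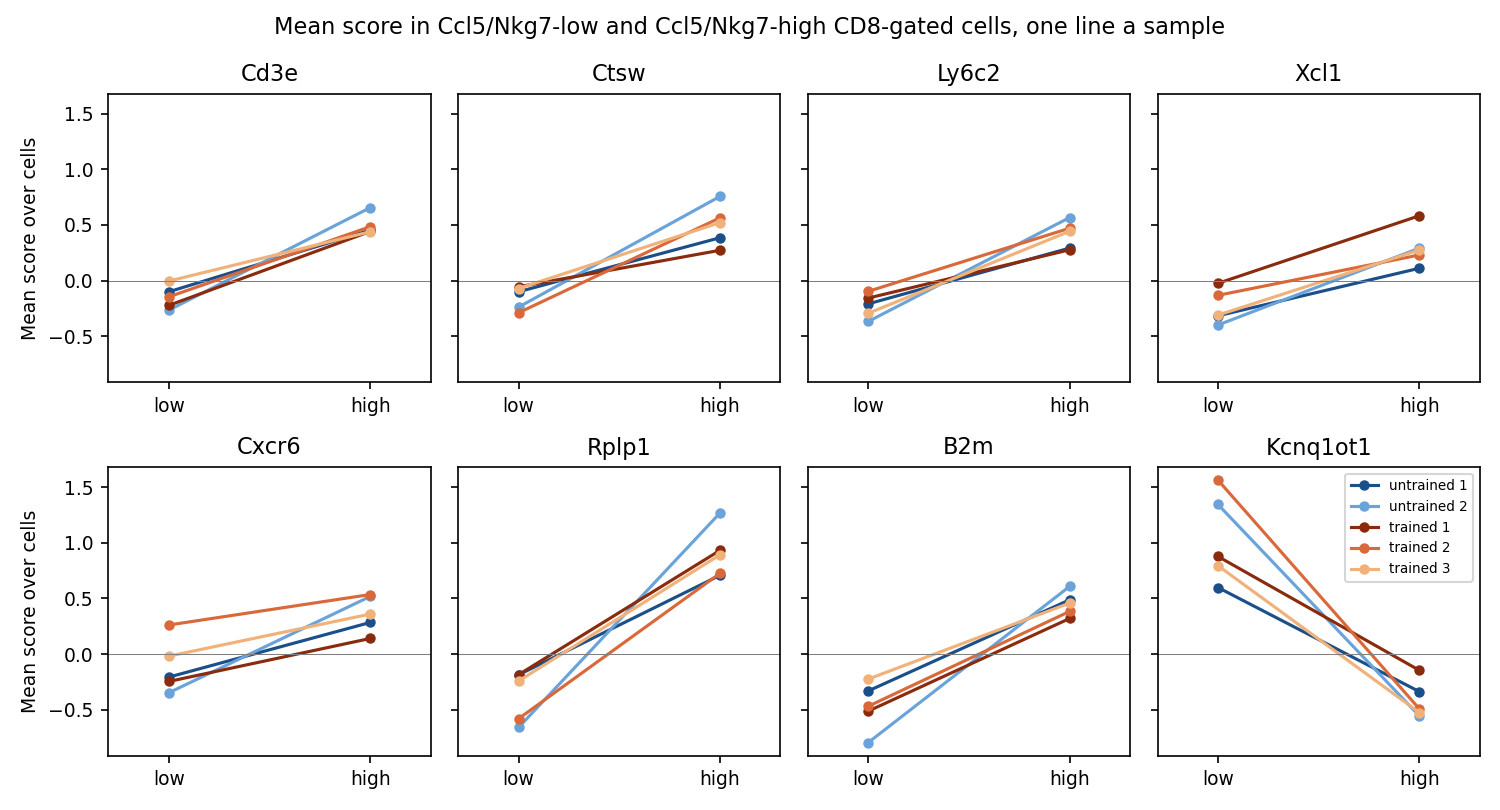
Mean score over cells in the low and the high class for 8 genes, 1 line for each of the 5 samples. Rplp1, B2m, Cd3e, Ctsw, Ly6c2 and Xcl1 rise from low to high with no overlap, Cxcr6 rises in each sample with overlap between samples, and Kcnq1ot1 falls.

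Because few low cells had a positive T cell marker mean, a second division was made within the 108 CD8-gated cells that had one. They were split at the median Ccl5/Nkg7 score of each sample (6 to 15 cells a class and sample). Those medians ran from 0.609 to 1.67, above the first division at 0. Of the 108 cells 99 belonged to the high class, so mostly high cells were compared with other high cells. This comparison was added after the data were seen, and the marker genes are no evidence within it. Here 0 genes passed (limma, smallest adjusted p = 0.789), and 169 (5.79%) had an unadjusted p under 0.05. The median difference over all tested genes was 0.02. Of the 1637 genes called in the full division, 668 (40.8%) had the opposite sign here, among them 30 of the 87 named genes that were called. The ribosomal list, with a median of 0.88 in the full division, had one of -0.01.

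Cxcr6 was at 0.320, 0.977, 0.247, 0.869 and 0.571 in the upper cells and at 0.0669, 0.350, -0.0112, 0.335 and 0.145 in the lower cells of the same samples. It was higher in 5 of 5 samples by 0.42 ± 0.0968 (SE) but did not pass (limma adjusted p = 0.789). Fasl, the ligand that triggers death of Fas-bearing cells (0.50), Il2rb, a receptor chain for interleukins 2 and 15 (0.49), and Serpina3g, a protease inhibitor of activated T cells (0.41), were also higher in 5 of 5 samples without passing (limma adjusted p = 0.789 for each). These last 3 genes were named after their values were seen. The share of all tested genes that were higher in 5 of 5 samples is not given here, so this agreement is a description only.

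The naive and recirculation list had a median of -0.14 in the same fit, with 3 of 10 genes positive, and 0 of them passed. Tcf7 was at -0.21 and Klf2, which drives S1pr1, at -0.21 (limma adjusted p = 0.865 and 0.844). Tcf7 was lower in the upper cells in 3 of 5 samples, and its sign in the full division was the opposite.

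**Figure D3:**
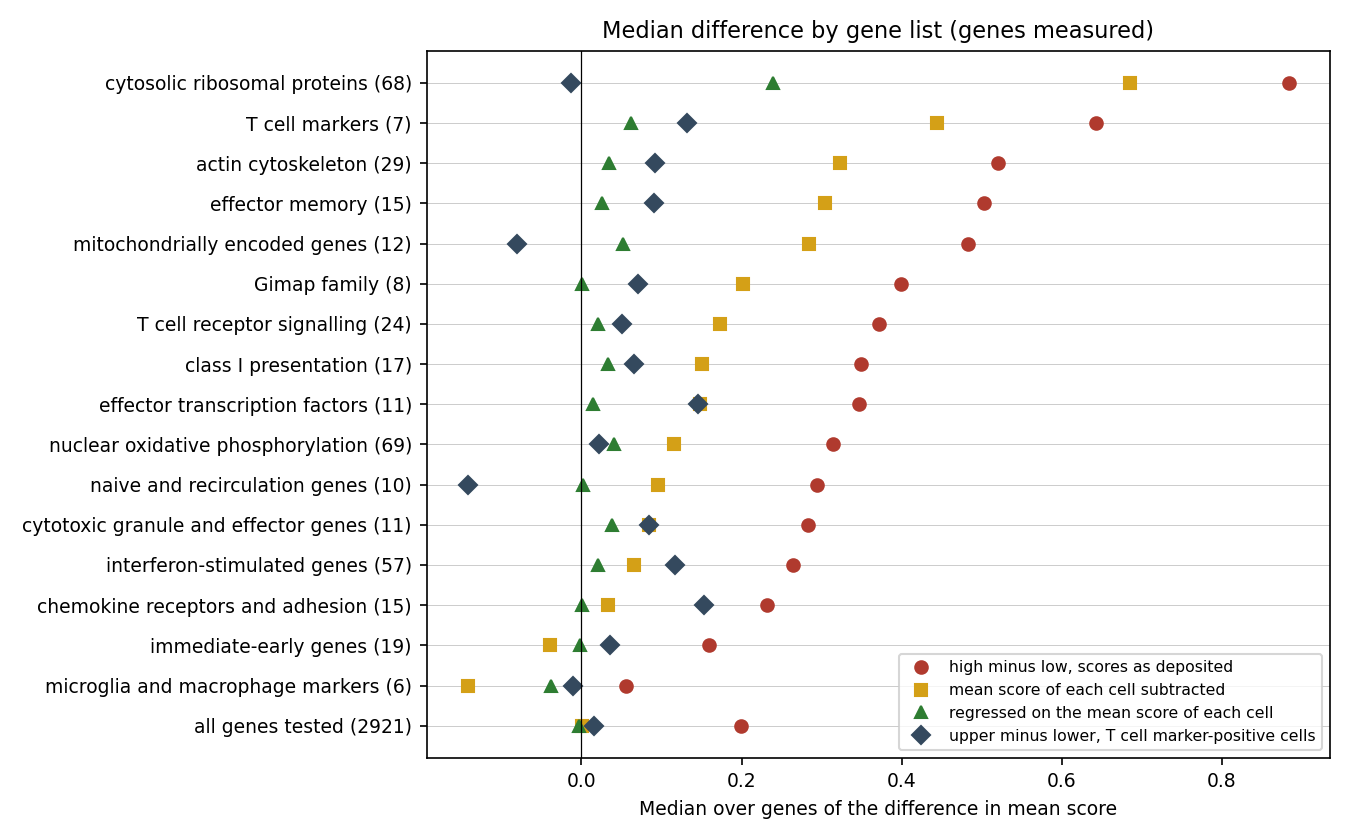
Median over the measured genes of each list (number in brackets) of the difference in mean score. Circles show high minus low, squares the same after the mean score of each cell was subtracted, triangles after regression on it, and diamonds upper minus lower among T cell marker-positive cells; the ribosomal list falls from 0.88 (circle) to -0.01 (diamond).

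Training was then compared. The high class made up 58.3% of CD8-gated cells in untrained sample 1 (95% Wilson interval 42.2 to 72.9) and 65.6% in untrained sample 2 (48.3 to 79.6). It made up 70.6% (46.9 to 86.7), 82.4% (66.5 to 91.7) and 70.0% (54.6 to 81.9) in trained samples 1 to 3. The intervals cover counting error only. All 3 trained samples lay above both untrained ones, with means of 74.3% ± 6.97 (SD, n = 3) and 62.0% ± 5.16 (SD, n = 2).

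The difference in share was 12.3 percentage points (two-sided exact permutation p = 0.1, the smallest that 10 splits allow, so the design cannot reach 0.05). With the CD8 gate at 0.25 the difference was 0.178 points. Among T cell marker-positive cells the share was 91.3% in trained and 90.4% in untrained samples, a difference of 0.887 points. Under these 2 settings the trained and untrained samples overlapped, as they did with Ccl5 alone (9.58 points, with trained sample 1 at 58.8% and untrained sample 2 at 59.4%). They did not overlap with Nkg7 alone (15.0 points, exact permutation p = 0.2) or with the mean score of each cell subtracted (16.98 points, exact permutation p = 0.1).

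**Figure D4:**
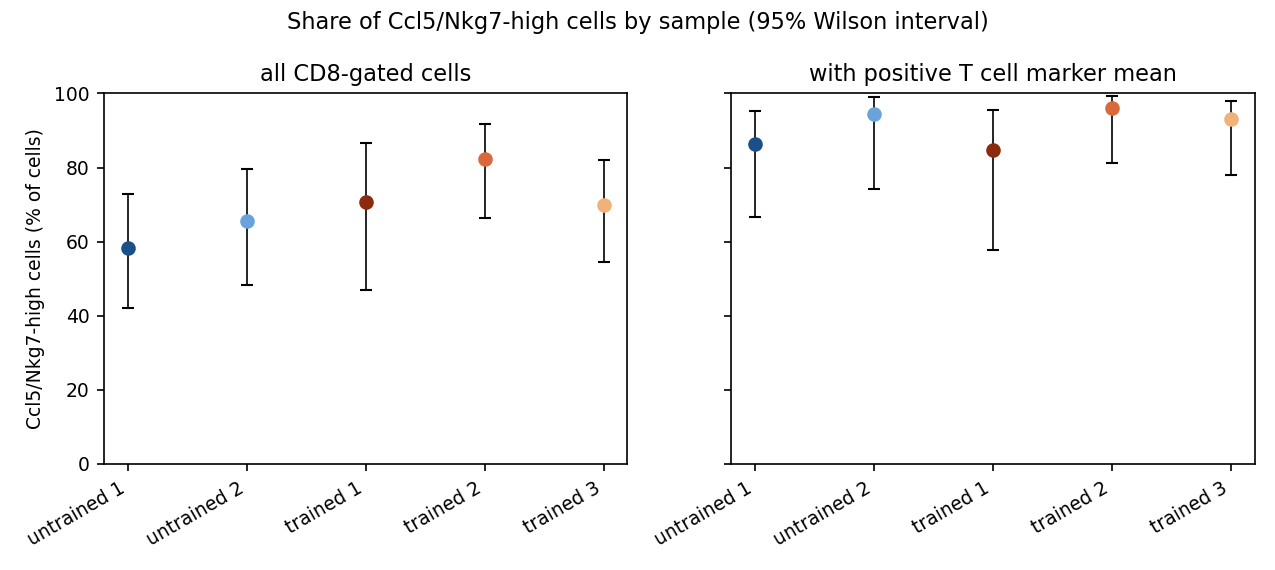
Share of Ccl5/Nkg7-high cells in each sample, in percent of all CD8-gated cells (left) and of those with a positive T cell marker mean (right), with 95% Wilson intervals. On the left the trained samples lie at 70.0% to 82.4% and the untrained at 58.3% and 65.6%; on the right the groups overlap.

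No gene passed for training within the high class (0.0% of 2921 by limma, 141, or 4.83%, at an unadjusted p under 0.05) or within the low class (0.0%, 93 or 3.18% unadjusted). Jun, an immediate-early transcription factor, was at -0.0471 and -0.451 in the high class of untrained samples 1 and 2, and at 0.304, 0.103 and -0.0201 in trained samples 1 to 3. The difference was 0.38 ± 0.121 (SE, limma adjusted p = 0.855), with trained sample 3 close to untrained sample 1. Npm1, a nucleolar chaperone, was at 0.515 and 0.894 in untrained and at -0.0366, 0.418 and 0.379 in trained samples (difference -0.45, limma adjusted p = 0.855).

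In the low class, Scaf11, a splicing-related protein, was at 0.0232 and 0.595 in untrained and -0.258, -0.195 and -0.308 in trained samples (difference -0.56, limma adjusted p = 0.995). For the change of the high minus low difference with training, no gene passed (0.0% by limma, 74, or 2.53%, at an unadjusted p under 0.05). Named genes included Jun at 0.63, Glrx2, a glutaredoxin, at 0.54 and Hcls1, an actin regulator of blood cells, at -0.64 (limma adjusted p = 0.9996 for each). The low class held 5 and 6 cells in trained samples 1 and 2.

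The same division in the 146 CD4-gated cells gave 56 high and 90 low cells. There, 40 genes passed (1.37% of 2921, limma), 36 (1.23%) higher and 4 (0.137%) lower, with a median difference of 0.09. The T cell marker mean was above 0 in 83.9% of high and 51.1% of low CD4-gated cells. A positive marker mean was thus more frequent in the CD4 low class than in the CD8 low class (18.4%). Ctsw was at 0.113, 0.391, 0.342, 0.415 and 0.0798 in high and at -0.145, -0.314, -0.487, -0.204 and -0.298 in low CD4-gated cells, with a difference of 0.56 (limma adjusted p = 0.0285) beside 0.65 in CD8-gated cells. Hopx (0.48) and Id2 (0.48) passed as well, while Srgn (0.0007, limma adjusted p = 0.998) and Xcl1 (0.08, limma adjusted p = 0.603) did not. These CD4 calls were lost under several settings: 0 genes passed with subtraction (Ctsw at 0.47, limma adjusted p = 0.0712), with the gate at 0.25, with Ccl5 alone, without trained sample 2 or without trained sample 3, and among T cell marker-positive cells.

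The difference between the 2 gates was tested in 1 model. It passed for 157 genes (5.37%), 117 (4.01%) larger and 40 (1.37%) smaller in CD8-gated cells, and 48 of the 117 were ribosomal proteins. For Rplp1, high cells exceeded low cells by 1.28 under the CD8 gate and by 0.31 under the CD4 gate (difference 0.97, limma adjusted p = 0.00259). Kcnq1ot1 differed by -1.45 and -0.49 (difference -0.95, limma adjusted p = 0.00427). Without trained sample 2, which has 6 CD8-gated low cells, 0 genes passed, and none did among T cell marker-positive cells split at the median.

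**Figure D5:**
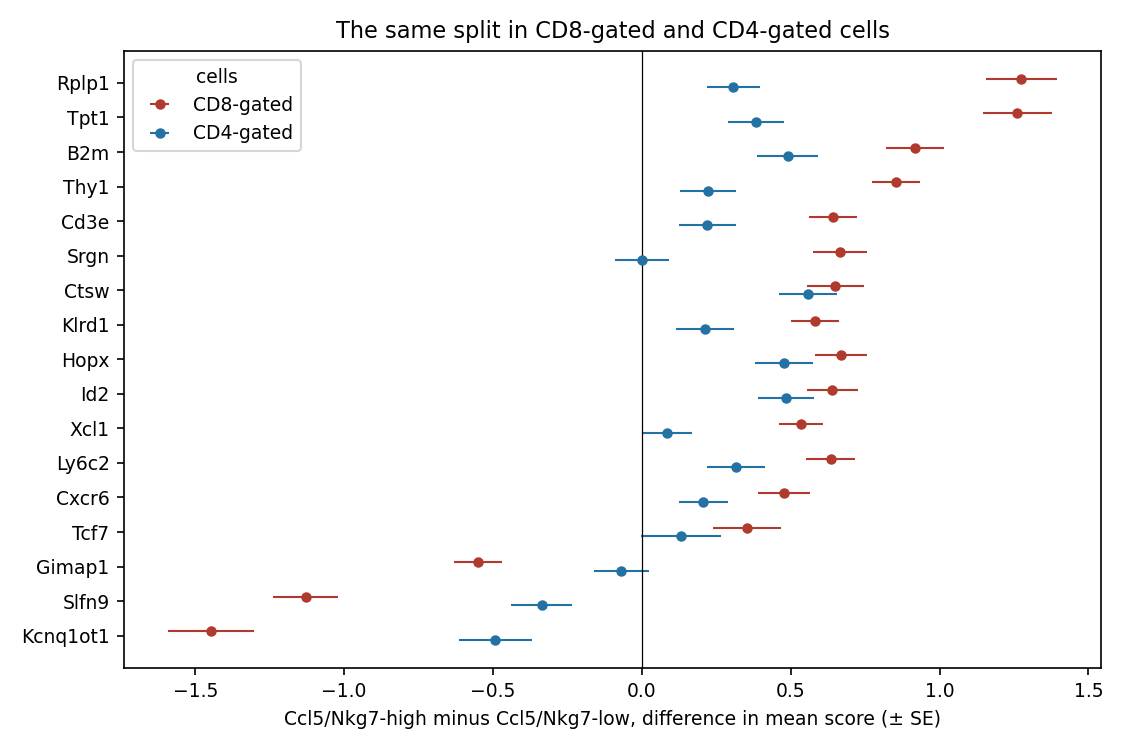
Difference in mean score between Ccl5/Nkg7-high and Ccl5/Nkg7-low cells (± SE) for 17 named genes, within each of the 2 coreceptor gates. Ctsw, Hopx and Id2 lie close together in both gates, whereas Rplp1 (1.28 and 0.31) and Kcnq1ot1 (-1.45 and -0.49) lie apart.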

How the data were processed

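Per the labels, CD45- and CD3-stained cells were sorted after 37% Percoll enrichment. The submitters' processing notes name Cell Ranger. For normalization, integration and genome build the sources used here give nothing. The values deposited by the authors are scores, so no count test was possible and depth is unknown. Cells were assigned to samples by the number ending their names. Of the well names, 221 occurred in more than 1 sample and 0 cells were identical.

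Mean scores per gene, class and sample (at least 5 cells) were fitted with limma 3.58.1 in R 4.3.3, with sample as a fixed block and Benjamini-Hochberg adjustment over 2921 genes. Shares were tested by exact permutation. The fit was tested on simulated data.

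The members and lists were chosen with earlier results of these data known. Named genes were up to 10 a direction with the largest differences, 3 a list by p, up to 5 a direction for other comparisons, and a set of lineage genes. The regression on the cell mean and the split within T cell marker-positive cells were added after most called genes were seen to be higher in the high class; the latter changes both cells and threshold and is given as a comparison of its own and as an alternative. A few of the named genes are not reported here.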

Additional observations from a re-analysis of the deposited data

Results flagged for a closer look

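The high minus low difference was tested between the 2 coreceptor gates, and 9 named genes differed (limma, adjusted p from 0.00259 to 0.00447). It was larger in CD8-gated cells for Rplp1 by 0.97, Rpl17 by 0.95, Rpl12 by 0.92, Tpt1 by 0.88 and Rps29 by 0.86. It was more negative in CD8-gated cells for A630089N07Rik (-0.98), Gm10785 (-0.96), Kcnq1ot1 (-0.95) and Gm17821 (-0.94). All 9 lost the call without trained sample 2. The share of low cells with a positive T cell marker mean, 18.4% under the CD8 gate and 51.1% under the CD4 gate, moved with these differences, and its part in them was not tested.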

How the results depend on the processing

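Up to 18 settings were run per comparison. For the division of CD8-gated cells, 1637 genes passed; the count was 523 with the mean score of each cell subtracted, 518 with the gate at 0.25 (where only 2 samples had 5 cells in each class), 589 with a split at each sample's median, 1022 with Ccl5 alone, 1 after regression on the cell mean and 0 within T cell marker-positive cells split at the median. Leaving out 1 sample gave 1185 to 1733. Restricting to T cell marker-positive cells at the division of 0 gave no value, since every sample had under 5 low cells. Subtraction moved the split of calls from 1507 higher and 130 lower to 281 and 242. Without the replicate block, 1726 genes passed in CD8-gated and 6 in place of 40 in CD4-gated cells.

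For the CD4-gated division the count was 9 with scores divided by their SD, 5 with medians over cells, 115 with Nkg7 alone, 101 with weights by cells, and 0 with subtraction, the gate at 0.25, Ccl5 alone, regression and both restrictions to T cell marker-positive cells, with 0 to 62 when 1 sample was left out. For the difference between gates, 157 became 15 with the gate at 0.25, 34 with Nkg7 alone, 5 with medians, and 0 with the median split, Ccl5 alone, regression and T cell marker-positive cells split at the median, with 0 to 128 when 1 sample was left out. For training, 0 became 3 in the low class with the median split and 0 to 1 in the high class when 1 sample was left out (1 without untrained sample 1). The difference in share ran from 8.31 to 15.98 points when 1 sample was left out. The cause of each change was not tested.

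Sign changes among named genes are given as differences under each setting. Within T cell marker-positive cells split at the median, where no gene passed, the signs changed for Rpsa -0.13, Rpl17 -0.0604, Rps16 -0.00723, Rpl13 -0.0637, A630089N07Rik 0.16, Gm10785 0.15, Kcnq1ot1 0.15, Gm17821 0.13, Vmn2r55 0.17, A130077B15Rik 0.0529, Grk4 0.11, Slfn9 0.0554, Klrk1 -0.11, Xcl1 -0.0860, Mif -0.0856, Tox -0.0280, Psme2 -0.12, Ldha -0.22, Pgam1 -0.0109, Gimap1 0.0623, Tyms 0.15, H2afz -0.11, Ctss -0.11, C1qb -0.0445, Mbp -0.17, Rps3a1 -0.0757, Atp5e -0.0501, mtCo3 -0.0854, mtCo1 -0.20, Cd2 -0.0359, Tcf7 -0.21, Il7r -0.15, S1pr1 -0.21, Lef1 -0.0688, Klf2 -0.21 and Cst3 -0.10. In that setting the difference of the division by training changed sign for Glrx2 -0.0578 and Hcls1 0.22. The difference between gates changed sign in that setting for Rplp1 -0.14, Rpl17 -0.0344, A630089N07Rik 0.23, Gm10785 0.25, Kcnq1ot1 0.21 and Gm17821 0.24. After regression on the cell mean signs changed for Klrk1 -0.0856, Cd27 -0.00208, Cd69 -0.0185, Ldha -0.0187, Lgals1 -0.0778, Gimap3 -0.0300, Hspa8 -0.0231, Hsp90ab1 -0.00272, Ran -0.0282, C1qb -0.0116, Cox6a1 -0.0155, Cd2 -0.0582, Tbx21 -0.0262, Tcf7 -0.0720, S1pr1 -0.0299, Lef1 -0.0276, Cst3 -0.0643 and Tyrobp -0.0645. With the cell mean subtracted they changed for Tox -0.0366, Ctss -0.0527, C1qb -0.12, Lef1 -0.0790, Cst3 -0.16 and Tyrobp -0.17. With the gate at 0.25 they changed for Ctss -0.0173, C1qb -0.0585, Cst3 -0.16 and Tyrobp -0.0995. With the median split this held for Ctss -0.0281. With Ccl5 alone this held for Tox -0.0513. With medians over cells it held for Ctsb 0.0194, Tyrobp -0.0319, Ms4a4c 0.0104 and Hcls1 0.0162 (Ms4a4c for training in the low class, Hcls1 for its interaction). Signs changed without trained sample 1 for Cst3 -0.0138 and Ctsb 0.0297. Signs changed without trained sample 2 for Tyrobp -0.00651. Signs changed without trained sample 3 for Tyrobp -0.0104. With 1 sample left out the differences ran from -0.0138 to 0.111 for Cst3, from -0.111 to 0.0297 for Ctsb, from -0.0104 to 0.0871 for Tyrobp.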
